A study of Mus musculus with 2 samples.

Results

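The 799 regions described here are the accessible sites, or peaks, around 7 genes of the testis interstitium: *Nr2f2*, *Nr2f1*, *Tcf21*, *Gli2*, *Gli3*, *Ptch1* and *Pdgfra*. Around these genes they were taken by position alone, as every one of the 109215 peaks of the library whose midpoint lay within 1 Mb of the start of one of them. The genes themselves were chosen with earlier results of these data known. The study lists *Nr2f2*, *Tcf21* and *Pdgfra* among markers of its progenitor cluster in the same library. It also ranks *Gli2* high among the transcription factors of that cluster, by differential RNA and motif enrichment. A lean of these loci towards progenitor-like nuclei is thus a description. Only *Nr2f2* and *Nr2f1* encode nuclear receptors, so each region is called by its locus. The windows held 105 peaks around *Nr2f2*, 53 around *Nr2f1*, 124 around *Tcf21*, 113 around *Gli2*, 79 around *Gli3*, 163 around *Ptch1* and 162 around *Pdgfra*. By the annotation, 406 midpoints were intergenic, 326 intronic, 41 in a UTR and 26 in another exon.

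Whole testes of mouse embryos at E14.5 that carried *Nr5a1-cre* and *Rosa-tdTomato* were profiled with the 10x multiome assay, in which RNA and accessible DNA (ATAC, cut by a transposase) are read from 1 nucleus. *Nr5a1-cre* acts in steroidogenic and supporting cells of the gonad, and every nucleus came from embryos of this genotype. Each assay had 1 library, so no replicate stands behind any value, no test was made, and nuclei are not replicates of a condition. The methods name the lines as B6D2-Tg(Nr5a1-cre)2Klp and, for *Rosa-tdTomato*, a B6.Cg line, while the number of embryos pooled is not given in them. Intervals are exact 95% intervals of the counting error and cover nothing else.

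NR2F2 (COUP-TFII) and NR2F1 (COUP-TFI) are orphan nuclear receptors of mesenchymal cells, and TCF21 is a basic helix-loop-helix factor of gonadal and kidney mesenchyme. PTCH1 is the receptor of Hedgehog ligands and GLI2 and GLI3 are transcription factors at the end of that pathway, while PDGFRA is a receptor of platelet-derived growth factors on stromal cells. In the fetal testis, Desert hedgehog from Sertoli cells acts on interstitial cells, among which the androgen-making Leydig cells differentiate.

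RNA clusters of the 7198 nuclei kept gave 2257 progenitor-like, 1117 contractile-like, 347 mesonephric mesenchyme-like, 44 pericyte-like and 771 Leydig-like nuclei. The others were 571 surface epithelium-like, 828 Sertoli-like, 977 germ-like, 94 endothelial-like, 65 immune-like and 43 erythroid-like nuclei, and 84 nuclei led by *Pax8* that stayed unnamed. The 148 genes of the 7 windows took no part in clustering or naming. All 6 Leydig, 3 mesonephric mesenchyme and 8 pericyte markers were highest in their own class. Of the 5 progenitor markers only *Adam23* was (482 UMIs per 1000000, or CPM, against 156 CPM in contractile-like nuclei), and *Wnt5a*, *Lhx9* and *Pknox2* were higher in contractile-like nuclei, so these classes are weakly separated. Only 2 of 6 contractile markers were highest in contractile-like nuclei, with *Acta2*, *Actg2* and *Tagln* highest in pericyte-like nuclei, and 4 of 6 surface epithelium markers were highest in their own class. *Cyp17a1*, an enzyme of androgen synthesis, stood at 1805 CPM in Leydig-like nuclei and between 144 and 259.8 CPM in every other class. Accessibility is given as fragments with a cut in a peak per 1000000 fragments of the class at peaks (FPM). Those totals were 4787317 fragments for progenitor-like, 1155850 for Leydig-like, 605665 for mesonephric mesenchyme-like and 80681 for pericyte-like nuclei.

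The sequences of 6 peaks are shown as examples of the kinds of difference described below: peaks high in progenitor-like nuclei (Tcf21_62, Gli2_41), most like the RNA of their gene (Nr2f2_101, Gli3_46), or higher in contractile-like (Tcf21_79) or Leydig-like nuclei (Pdgfra_109). Each is the plus strand of the central 300 bases in mm10, read from GRCm38.p6, and touches no annotated exon. Peaks are numbered along the chromosome within each locus. Capitals mark matches on either strand to the motifs searched, which were AGGTCA for nuclear receptors, CAAGGTCA for NR5A1 (which includes the former), CAGCTG for E-box factors, ACCACCC for GLI factors, ACAAAG for SOX factors, AGATAA for factors of the GATA family and TGANTCA for AP-1. A match describes the letters and is not a bound site. Nr2f2_101 and Tcf21_62 hold no match, Tcf21_79 has CAGCTG at 3 places, Gli2_41 holds CAGCTG and ACAAAG, Gli3_46 has CAGCTG at 2 places beside an AP-1 match, and Pdgfra_109 has AGGTCA at 3 places and CAGCTG at 2.
Nr2f2_101, chr7:71230992-71231291: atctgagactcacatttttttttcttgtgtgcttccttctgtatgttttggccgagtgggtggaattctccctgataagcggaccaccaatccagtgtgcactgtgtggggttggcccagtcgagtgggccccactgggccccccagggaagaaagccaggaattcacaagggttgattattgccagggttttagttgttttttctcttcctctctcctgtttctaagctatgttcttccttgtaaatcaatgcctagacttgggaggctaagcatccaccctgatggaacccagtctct
Tcf21_62, chr10:22839543-22839842: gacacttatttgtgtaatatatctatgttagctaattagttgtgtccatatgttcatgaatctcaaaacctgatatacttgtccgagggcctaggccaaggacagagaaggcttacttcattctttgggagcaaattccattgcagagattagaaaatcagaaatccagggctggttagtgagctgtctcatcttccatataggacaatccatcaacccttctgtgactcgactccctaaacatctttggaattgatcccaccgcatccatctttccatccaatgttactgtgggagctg
Tcf21_79, chr10:22981955-22982254: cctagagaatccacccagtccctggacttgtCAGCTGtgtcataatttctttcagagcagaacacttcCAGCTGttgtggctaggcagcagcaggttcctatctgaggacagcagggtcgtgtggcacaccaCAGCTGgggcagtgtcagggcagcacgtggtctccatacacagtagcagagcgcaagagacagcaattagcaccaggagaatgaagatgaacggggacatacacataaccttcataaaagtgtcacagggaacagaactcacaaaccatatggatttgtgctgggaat
Gli2_41, chr1:119033785-119034084: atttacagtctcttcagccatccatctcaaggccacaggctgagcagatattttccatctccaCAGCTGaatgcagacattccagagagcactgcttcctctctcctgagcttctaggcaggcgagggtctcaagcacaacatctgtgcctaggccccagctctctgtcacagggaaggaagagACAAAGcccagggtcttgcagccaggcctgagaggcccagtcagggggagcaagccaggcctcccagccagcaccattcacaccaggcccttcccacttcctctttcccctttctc
Gli3_46, chr13:15741801-15742100: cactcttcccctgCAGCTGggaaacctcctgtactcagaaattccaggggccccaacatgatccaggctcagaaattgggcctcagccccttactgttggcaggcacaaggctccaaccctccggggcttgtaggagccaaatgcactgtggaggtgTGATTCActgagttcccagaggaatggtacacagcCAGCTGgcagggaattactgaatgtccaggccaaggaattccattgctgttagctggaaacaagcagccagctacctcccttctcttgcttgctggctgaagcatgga
Pdgfra_109, chr5:75428111-75428410: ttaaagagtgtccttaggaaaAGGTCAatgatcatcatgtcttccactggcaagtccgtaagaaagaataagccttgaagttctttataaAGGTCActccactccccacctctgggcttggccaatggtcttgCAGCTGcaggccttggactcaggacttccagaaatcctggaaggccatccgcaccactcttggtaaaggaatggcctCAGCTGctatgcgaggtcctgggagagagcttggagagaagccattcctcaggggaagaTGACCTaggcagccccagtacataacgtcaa

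Over the whole 1 Mb windows, *Nr2f2* had the largest excess of accessibility in progenitor-like over Leydig-like nuclei among the 7 loci, an order that did not hold within 500 kb. Its 105 peaks summed to 877 FPM (851 to 904) in progenitor-like and 516 FPM (475 to 559) in Leydig-like nuclei, and the ratio was 1.7 (1.56 to 1.86). The contractile-like sum was 821 FPM, the mesonephric mesenchyme-like sum 786 FPM and the surface epithelium-like sum 647 FPM. The 44 pericyte-like nuclei gave 744 FPM (567 to 957). Germ-like nuclei were at 429 FPM and Sertoli-like nuclei at 390.5 FPM. The locus was thus high across the mesenchymal classes and lower in Leydig-like, germ-like and Sertoli-like nuclei.

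Over the same windows the excess was smaller at the other loci, and the ratio was below 1 at *Gli2*. The progenitor over Leydig ratio of the locus sum was 1.29 (1.17 to 1.41) at *Gli3*, 1.28 (1.21 to 1.36) at *Pdgfra* and 1.18 (1.1 to 1.27) at *Tcf21*. It was 1.13 at *Nr2f1*, with an interval that just clears 1 (1.01 to 1.28), and 1.03 at *Ptch1*, with an interval that holds 1 (0.983 to 1.09). The *Gli2* peaks summed to 1081 FPM in progenitor-like, 1218 FPM in Leydig-like and 1300.4 FPM in Sertoli-like nuclei, and the ratio was 0.887 (0.836 to 0.942). The order rested on the width of the window. Within 500 kb the ratio was 1.89 at *Tcf21* and 1.67 at *Gli3*, above the 1.59 of *Nr2f2*, and it was 1.25 at *Ptch1* and 0.99 at *Gli2*.

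**Figure D1:**
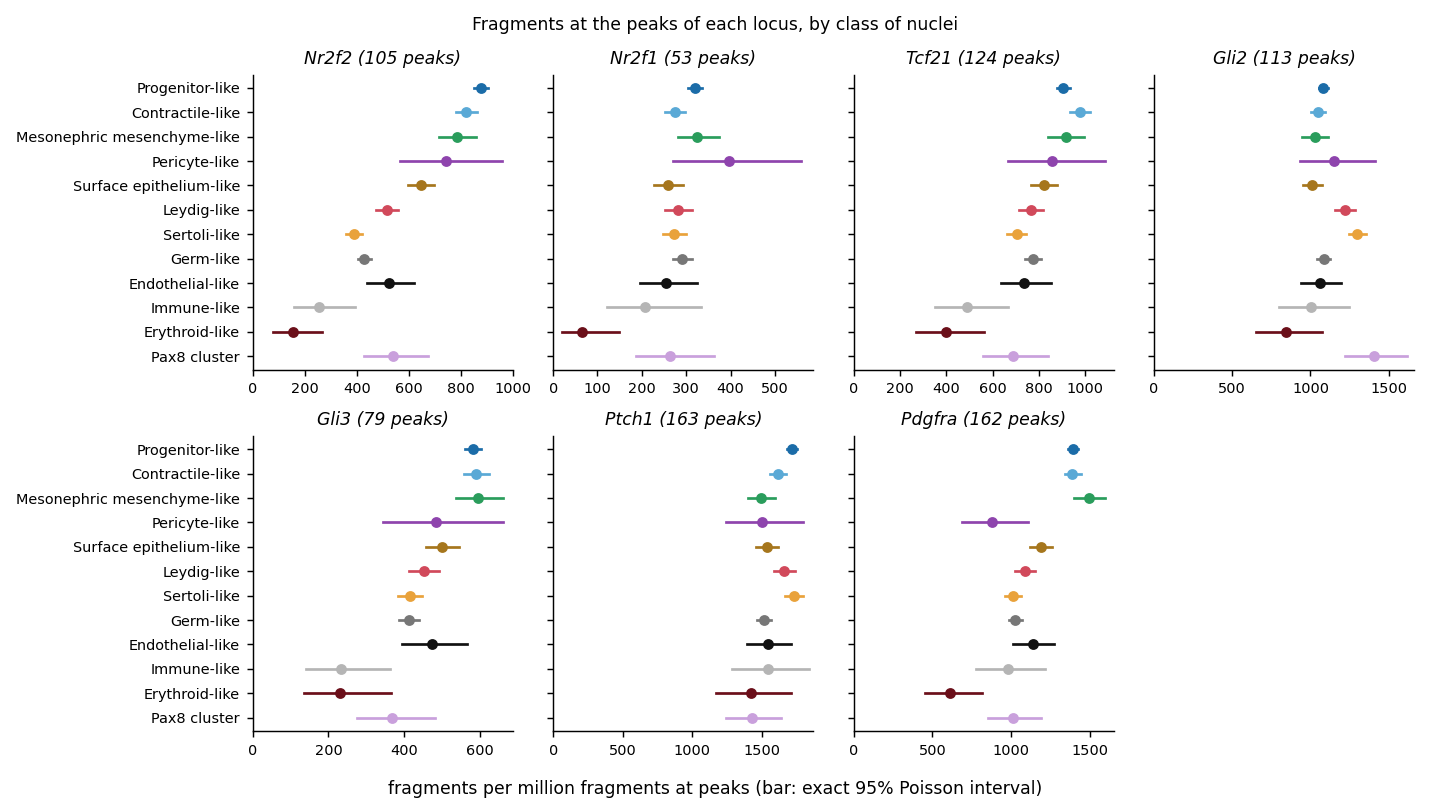
Summed accessibility of the peaks of each locus (x axis, FPM) in 12 classes of nuclei (y axis); points are levels and bars exact 95% Poisson intervals. At Nr2f2 the progenitor-like sum (877) lies above the Leydig-like sum (516), at Ptch1 both are close (1716 and 1661), and at Gli2 the Leydig-like sum is higher (1081 and 1218).

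Fragments in the windows but outside every peak did not enter these sums. Scaled to all fragments outside peaks, their progenitor over Leydig ratio was 1.53 (1.44 to 1.62) at *Nr2f2*, 1.34 at *Pdgfra*, 1.2 at *Tcf21*, 1.11 at *Gli3*, 1.02 at *Ptch1*, 0.989 at *Nr2f1* and 0.898 at *Gli2*. *Nr2f2* was again the highest of the 7 and *Gli2* the lowest.

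Peak by peak, the members leaned towards progenitor-like nuclei more often than peaks elsewhere. With at least 20 fragments over both classes, 524 members could be compared, and 168 of them (32.1%) were at least 2-fold higher in progenitor-like nuclei, against 22.2% of all peaks. Another 50 members (9.54%) were at least 2-fold higher in Leydig-like nuclei, against 9.99% of all peaks. The median ratio was 1.37 over the members and 1.1 over all peaks. By locus, *Nr2f2* had 32 higher and 1 lower of 74 peaks, *Pdgfra* 46 higher and 10 lower of 112, *Gli3* 17 higher and 3 lower of 42 and *Tcf21* 24 higher and 6 lower of 72. *Ptch1* had 27 higher and 13 lower of 115, *Nr2f1* 5 higher and 0 lower of 29 and *Gli2* 17 higher and 17 lower of 80. The median member compared had 41 fragments, so single peaks are known only roughly. With contractile-like nuclei joined to progenitor-like nuclei, an alternative added after seeing the data, the share was 28.2% of members and 22% of all peaks.

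**Figure D2:**
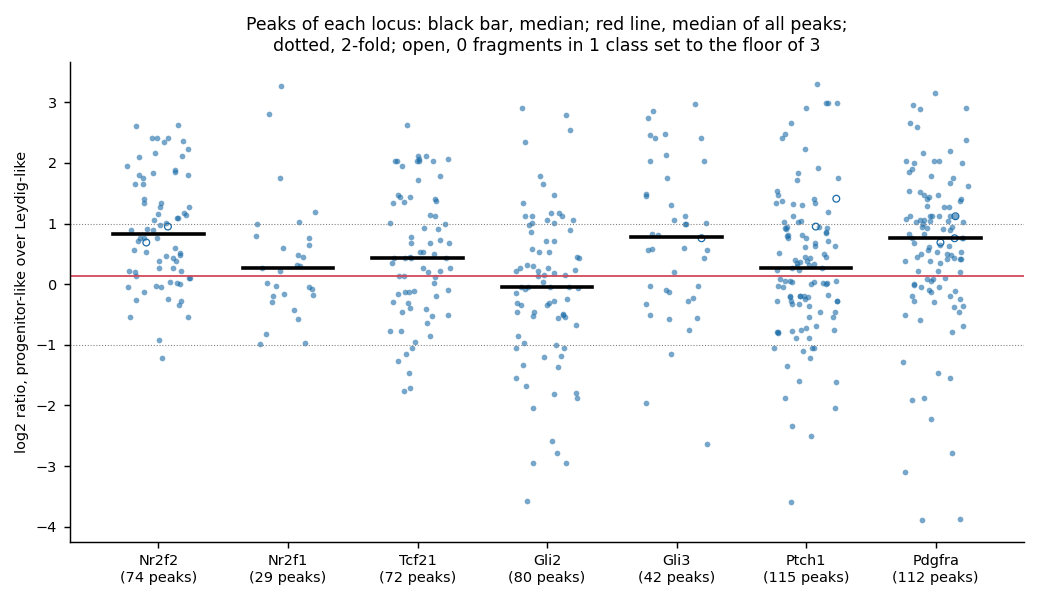
Progenitor-like over Leydig-like accessibility of each peak with at least 20 fragments (y axis, log2 ratio) by locus (x axis); bars are medians, the red line is the median of all peaks (0.14), dotted lines mark 2-fold, and open points are peaks at 0 in a class, drawn at the bound given by 3 fragments. Medians run from -0.05 at Gli2 to 0.82 at Nr2f2.

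Summed fragments and counts of peaks gave different pictures of where the progenitor-like excess lay. The 94 members within 1 kb of the start of any gene, most of them promoters of other genes, had a ratio of summed fragments of 0.913 (0.874 to 0.954), near the 0.926 of all such peaks. The other 705 members had 1.29 (1.25 to 1.33), against 1.08 for all peaks away from promoters. By distance from the locus gene, the ratio was 1.39 (1.23 to 1.57) within 1 kb, which are the promoters of the 7 genes, 1.4 (1.24 to 1.58) from 1 to 10 kb, 1.59 (1.46 to 1.72) from 10 to 100 kb, 1.16 (1.11 to 1.21) from 100 to 500 kb and 1.01 (0.975 to 1.05) beyond. The share of peaks at least 2-fold higher in progenitor-like nuclei was 18.2% within 1 kb (2 of 11), 36.8%, 35.9% and 34.3% in the next bins and 29.3% beyond. Over all peaks the share was 5.64% within 1 kb of any gene start and 27.1% away from promoters. By sums the ratio was thus lower from 100 kb outwards, while by peaks the share changed little from 1 to 500 kb. The share at the promoters of the 7 genes was the lowest of the bins but, from 11 peaks, lay above that of all promoter peaks. The bins past 1 kb were not cleared of promoters of other genes, so all peaks, at 22.2%, are their like background. The 29.3% beyond 500 kb lay above it. Of members away from the start of any gene, 36.5% were at least 2-fold higher, against 27.1% of all such peaks. At the edge of the windows, the outermost members had a median of 3.13 FPM in progenitor-like nuclei, and the first peaks outside had 1.98 FPM.

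Of the 228 members with at least 100 fragments over all nuclei, 45 (19.7%) had their highest level in progenitor-like nuclei among the 7 classes of at least 300 nuclei, against 11.7% of all peaks with that depth. Mesonephric mesenchyme-like nuclei were highest at 19.7% of these members and 18% of all peaks, contractile-like nuclei at 13.2% and 10.7%, and surface epithelium-like nuclei at 12.7% and 13.5%. Leydig-like nuclei were highest at 9.65% and 13.9%, Sertoli-like nuclei at 9.65% and 11.5%, and germ-like nuclei at 15.4% and 20.6%. Among all 12 classes, the smallest of which have few fragments, pericyte-like nuclei were most often highest at these members, with 17.5% of them and 15.2% of all peaks. Over all peaks erythroid-like nuclei were most often highest, at 17.5%, beside 6.58% of these members. Immune-like nuclei had 8.77% and 13.3%. For the 7 larger classes, the shares of these members and of all peaks were 11.4% and 5.73% for progenitor-like, 10.1% and 6.99% for mesonephric mesenchyme-like, 8.77% and 5.26% for contractile-like, 7.89% and 5.01% for surface epithelium-like, 3.95% and 4.41% for Leydig-like, 4.82% and 4% for Sertoli-like and 4.39% and 5.73% for germ-like nuclei. The surface epithelium-like and Sertoli-like shares thus lay below those of all peaks over 7 classes and above them over 12.

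**Figure D3:**
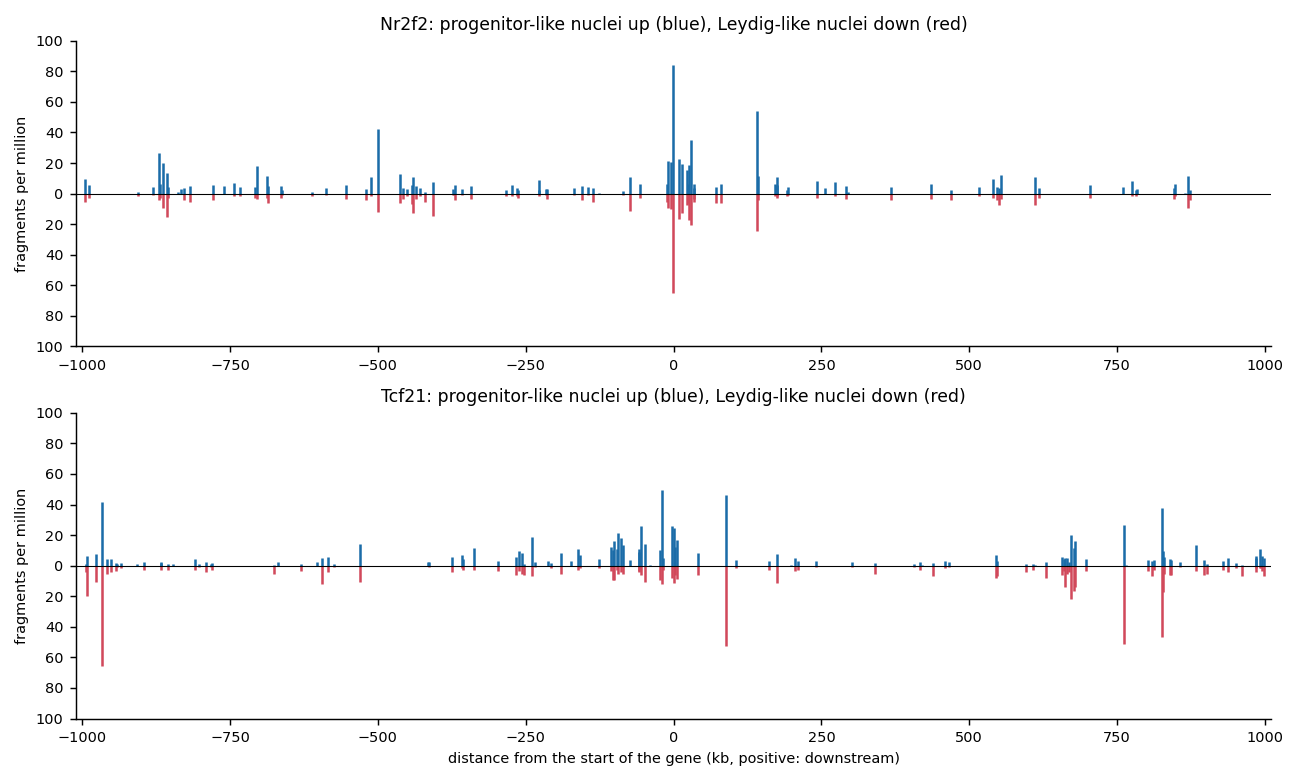
Level of each peak (y axis, FPM) by distance in kb from the start of Nr2f2 and of Tcf21 (x axis), progenitor-like nuclei upwards and Leydig-like nuclei downwards. The peak 141 kb downstream of Nr2f2 reaches 54.1 against 24.2, and the peak 19.5 kb upstream of Tcf21 49.5 against 12.1.

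At *Nr2f2*, the distal peak with the highest progenitor-like level was Nr2f2_32 (chr7:70218890-70219815), 141 kb downstream in an intron of the long non-coding gene *Gm29683*. It held 54.1 FPM (47.7 to 61.1, 259 fragments) in progenitor-like and 24.2 FPM (16.1 to 35, 28 fragments) in Leydig-like nuclei, a difference of 2.23 (1.51 to 3.43) times. Contractile-like nuclei had 36.9 FPM, mesonephric mesenchyme-like nuclei 26.4 FPM, Sertoli-like nuclei 13.1 FPM, germ-like nuclei 8.79 FPM and surface epithelium-like nuclei 4.98 FPM. The mesonephric mesenchyme-like level was 0.488 (0.275 to 0.808) times the progenitor-like one, so at this peak progenitor-like nuclei stood above the other classes of at least 300 nuclei. *Gm29683* RNA was 189 CPM in progenitor-like nuclei against 25.8 CPM in Leydig-like nuclei.

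Nr2f2_101 (chr7:71230700-71231583), 871 kb upstream and intergenic, was the peak most like *Nr2f2* RNA. Its correlation with the RNA was 0.828 (Pearson's r of log2 levels over 12 classes, which share 1 library and differ in depth), beside a median of 0.46 over the 22 *Nr2f2* peaks with at least 100 fragments. Unlike Nr2f2_32 it was open at like levels in 4 classes, with 26.3 FPM in progenitor-like, 33 FPM in contractile-like, 36.3 FPM in mesonephric mesenchyme-like and 28.9 FPM in surface epithelium-like nuclei. Leydig-like nuclei had 4.33 FPM from 5 fragments, and the ratio was 6.08 (2.54 to 19.1). Other distal *Nr2f2* peaks, chosen for their ratio and so given as a description, favoured single classes. Nr2f2_71 (chr7:70795891-70796672) held 34.7 FPM in mesonephric mesenchyme-like against 5.22 FPM in progenitor-like nuclei, 6.64 (3.53 to 12.4) times as much. Nr2f2_81, 588 kb upstream, was 4.84 (2.89 to 8.06) times as accessible in contractile-like nuclei as in all others, and Nr2f2_56, 216 kb upstream, at the start of the non-coding gene *Gm44812*, 7.18 (4.32 to 11.7) times in surface epithelium-like nuclei.

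The sum of the *Nr2f1* peaks differed little between progenitor-like and Leydig-like nuclei, with a ratio of 1.04 to 1.3 over the alternatives of processing. The promoter held 29.7 FPM and 28.6 FPM, while the RNA, which was low, stood at 21.6 and 7.26 CPM. Single peaks did differ, and Nr2f1_31, picked for its progenitor over Leydig ratio, had 3.92 to 10.4 over the alternatives. *Nr2f1* RNA was highest in pericyte-like (98.3 CPM) and mesonephric mesenchyme-like nuclei (63.5 CPM). Nr2f1_29 and Nr2f1_30 (chr13:78201320-78202203 and chr13:78203317-78204184), within 1 kb of a start of the neighbouring non-coding gene *A830082K12Rik* and in its intron, annotated as antisense, followed that order at low counts. They held 62 and 49.6 FPM in pericyte-like nuclei, from 5 and 4 fragments, against 24.4 and 17.5 FPM in progenitor-like nuclei. *A830082K12Rik* RNA itself was 189 CPM in pericyte-like, 163 CPM in mesonephric mesenchyme-like and 77.6 CPM in progenitor-like nuclei.

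Close to *Tcf21*, Tcf21_62 (chr10:22839227-22840158), an intergenic peak 19.5 kb upstream, was open across the mesenchymal classes. It held 49.5 FPM (43.4 to 56.2, 237 fragments) in progenitor-like nuclei, 63.2 FPM in contractile-like, 28.1 FPM in mesonephric mesenchyme-like and 26.9 FPM in surface epithelium-like nuclei. Leydig-like nuclei had 12.1 FPM (6.62 to 20.3, 14 fragments), so the progenitor-like level was 4.09 (2.39 to 7.59) times theirs. Of these 14 fragments, 12 came from nuclei that the automatic Scrublet threshold marks as doublets, and the ratio was 32.2 (5.71 to 1276) after their removal and renewed clustering. Tcf21_79 (chr10:22981662-22982547), 162 kb upstream and picked for this ratio, was instead 3.35 (2.28 to 4.86) times as accessible in contractile-like nuclei as in all others, at 22.3 against 6.67 FPM. *Tcf21* RNA stood at 81.2 CPM in contractile-like and 80.9 CPM in surface epithelium-like nuclei, above the 54.7 CPM of progenitor-like nuclei, and Leydig-like nuclei had 12.2 CPM. The 31 peaks nearer to *Tcf21* than to any other expressed gene held 374 FPM in progenitor-like and 149 FPM in Leydig-like nuclei. This grouping by nearest gene, here and below, was chosen after values had been seen.

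At *Gli2*, the distal peak with the highest progenitor-like level lay in an intron of the gene. This peak, Gli2_41 (chr1:119033489-119034381), had 62.5 FPM in progenitor-like, 54.4 FPM in contractile-like, 38 FPM in mesonephric mesenchyme-like and 28.6 FPM in Leydig-like nuclei, and the progenitor over Leydig ratio was 2.19 (1.52 to 3.24). Over the alternatives of processing its ratio ran from 1.94 to 2.58. Among peaks chosen alike, the ratio was 3.26 to 32.2 at Tcf21_62 and 1.65 to 3.46 at Nr2f2_32. At the remaining loci such peaks differed less or went the other way. Their ratio was 0.723 to 0.871 at Gli3_4, 0.864 to 0.974 at Pdgfra_162, 0.939 to 1.1 at Ptch1_62 and 1.14 to 1.34 at Nr2f1_29. The central 300 bases of Gli3_4 and Pdgfra_162 touch annotated exons (4 and 3), and those of Pdgfra_162 hold 72.7% G and C. The 34 peaks nearest to *Gli2* summed to 421 FPM in progenitor-like against 298 FPM in Leydig-like nuclei, the direction of the RNA (405 and 80.8 CPM).

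Peaks nearest to *Inhbb* and *Ptpn4* went the other way, as did the window as a whole. The 27 peaks nearest to *Inhbb*, which encodes the beta B subunit of activins and inhibins, summed to 114 FPM in progenitor-like, 239.7 FPM in Leydig-like and 306 FPM in Sertoli-like nuclei. *Inhbb* RNA had the same order (12, 48.4 and 87.5 CPM). One of these peaks, Gli2_77 (chr1:119412936-119413833), picked for this ratio, was 11.5 (7.9 to 16.8) times as accessible in Sertoli-like nuclei as in all others. It held 45.1 FPM there, 22.5 FPM in Leydig-like and 1.88 FPM in progenitor-like nuclei. Gli2_103 (chr1:119894674-119895585), nearest to the phosphatase gene *Ptpn4* and picked for its Leydig over progenitor ratio, held 30.3 FPM in Leydig-like and 4.39 FPM in progenitor-like nuclei. Gli2_38, picked for the largest progenitor over Leydig ratio of the locus, had 3.11 to 8.73 over the alternatives of processing. The 13 peaks nearest to *Ptpn4* summed to 197 FPM in Leydig-like against 124 FPM in progenitor-like nuclei, and its RNA was 775 and 209.5 CPM.

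The peak whose pattern most followed *Gli3* RNA was Gli3_46 (chr13:15741512-15742390), 279 kb downstream between *Gli3* and *Inhba*, with r = 0.959 over the same 12 classes. Its level was 40.8 FPM in surface epithelium-like, 34.7 FPM in mesonephric mesenchyme-like, 23.3 FPM in contractile-like and 19 FPM in progenitor-like nuclei. Leydig-like nuclei had 3.46 FPM (0.943 to 8.86, 4 fragments). *Gli3* RNA in the same order was 505, 735, 514, 375 and 207 CPM. The window also holds *Inhba*, the gene of the beta A subunit, whose RNA was 298 CPM in progenitor-like against 128 CPM in Leydig-like nuclei. The 34 peaks nearest to it held 243 and 177 FPM, and the one with the largest ratio at this locus, Gli3_61, 7.85 (2.09 to 66.2) times as much in progenitor-like nuclei, a value that was 3.22 with no doublets removed.

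*Ptch1* RNA was 3.62 (3.47 to 3.78) times as high in progenitor-like as in Leydig-like nuclei, while the sum of its 1 Mb window hardly differed. The promoter did differ, with 53.7 FPM against 28.6 FPM and a ratio of 1.88 (1.31 to 2.79). The 21 peaks nearest to *Ptch1* held 290.4 and 228 FPM. Away from the *Ptch1* promoter, the highest progenitor-like level was at Ptch1_62, which lies at the start of another gene, the DNA repair gene *Fancc*: its midpoint is within 1 kb of that start, and its central 300 bases touch annotated exons and hold 71.7% G and C. It was level between both classes (85 and 83.9 FPM). Ptch1_106 (chr13:63951779-63952662), 388 kb upstream, was most like the RNA (r = 0.682), with 30.7 FPM in progenitor-like and 12.1 FPM in Leydig-like nuclei. Ptch1_54 (chr13:63324812-63325724), picked for its Leydig over progenitor ratio, stood on the other side, with 32.9 FPM in Leydig-like and 2.72 FPM in progenitor-like nuclei. Its progenitor over Leydig ratio of 0.0826 was 0.0431 at a clustering resolution of 0.3. Ptch1_102, picked for the largest progenitor over Leydig ratio, had 3.92 to 12.1 over the alternatives of processing.

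The *Pdgfra* window joins genes of several cell types. The peaks nearest to *Pdgfra*, *Kit* and *Kdr*, a part of its 162 peaks, are given apart. Progenitor-like nuclei held *Pdgfra* RNA at 603 CPM, against 141 CPM in Leydig-like nuclei. *Kit*, a receptor tyrosine kinase gene that starts 423 kb away, had the reverse, 17.4 and 196 CPM. *Kdr*, the VEGF receptor gene of endothelium, stood at 298 CPM in endothelial-like nuclei. The 18 peaks nearest to *Pdgfra* held 146 FPM in progenitor-like and 93.4 FPM in Leydig-like nuclei, and the 30 nearest to *Kit* 125 and 186 FPM. The 21 nearest to *Kdr* held 227 FPM in endothelial-like, 198 FPM in mesonephric mesenchyme-like and 100.5 FPM in progenitor-like nuclei. Pdgfra_109 (chr5:75427790-75428731), an intergenic peak nearest to *Kit* and picked for its Leydig over progenitor ratio, had 27.7 FPM (18.9 to 39.1, 32 fragments) in Leydig-like nuclei. Progenitor-like nuclei had 1.88 FPM (0.86 to 3.57, 9 fragments). Its progenitor over Leydig ratio ran from 0.0411 to 0.102 over the alternatives of processing. At Pdgfra_153, picked for the largest progenitor over Leydig ratio of the locus, that ratio ran from 6.8 to 11.7.

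**Figure D4:**
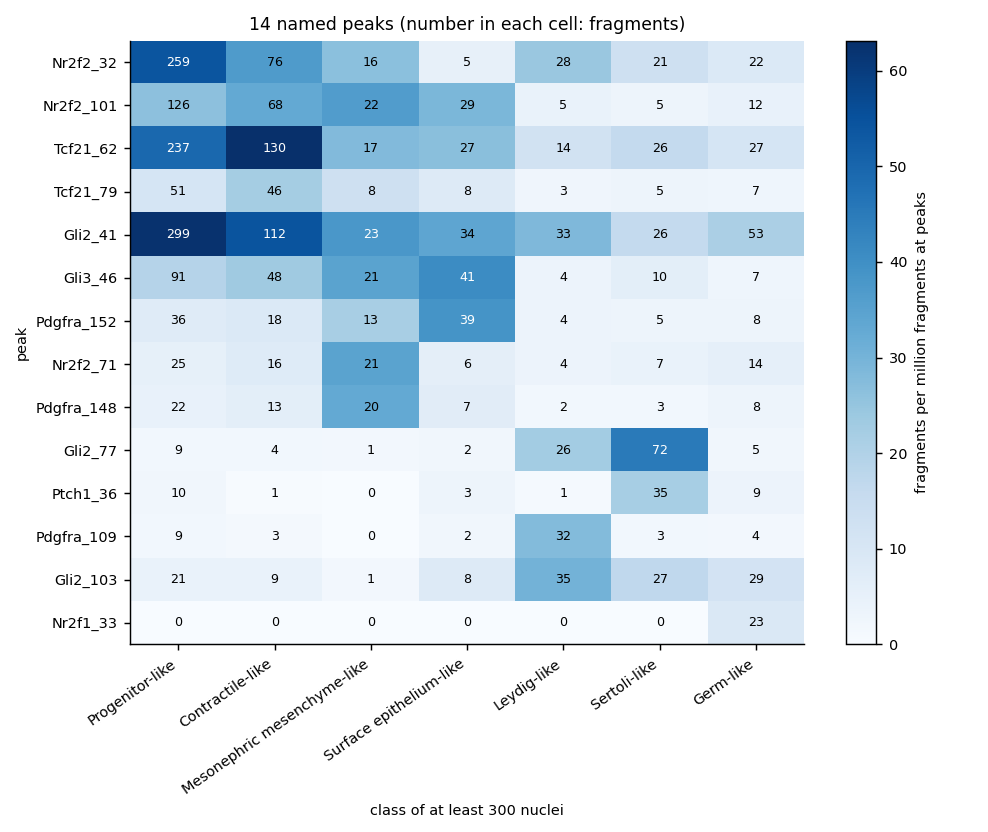
Levels (shade, FPM) of named peaks (rows) in the classes of at least 300 nuclei (columns), with the number of fragments in each cell. Tcf21_62 and Gli2_41 are high in progenitor-like and contractile-like nuclei (49.5 and 63.2; 62.5 and 54.4), Pdgfra_109 in Leydig-like nuclei (27.7) and Gli2_77 in Sertoli-like nuclei (45.1).

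At the promoters of the 7 genes, the progenitor over Leydig ratio was lower than in RNA, with intervals that overlapped those of RNA at *Tcf21* and *Gli3*. The progenitor over Leydig ratio of RNA ran from 1.81 for *Gli3* to 5.01 for *Gli2*, with 2.97 for *Nr2f1*, 4.06 for *Nr2f2*, 4.26 for *Pdgfra* and 4.49 for *Tcf21*. The promoter ratio was 2.21 (1.24 to 4.27) at *Tcf21*, 1.4 (1.11 to 1.77) at *Nr2f2*, 1.38 (1.0 to 1.92) at *Pdgfra* and 1.33 (1.01 to 1.77) at *Gli3*. The *Tcf21* promoter ratio depended on the doublets removed and was 1.44 with no doublets removed and 5.72 at the automatic Scrublet threshold. The intervals held 1 at *Gli2* (1.12, 0.795 to 1.6) and *Nr2f1* (1.04, 0.707 to 1.57). The *Nr2f2* promoter kept 75.3 FPM in Leydig-like and 59.9 FPM in germ-like nuclei, against 105 FPM in progenitor-like nuclei. Against germ-like nuclei, the promoter ratio of progenitor-like nuclei was below 1 at *Nr2f1* (0.687, 0.532 to 0.891, beside an RNA ratio of 3.97) and *Gli3* (0.796, 0.67 to 0.948, beside 1.56). The same promoter ratio was above 1 at *Tcf21* (2.71), *Nr2f2* (1.75), *Ptch1* (1.66) and *Pdgfra* (1.49), and its interval held 1 at *Gli2* (1.18, 0.91 to 1.54). Peaks within 1 kb of any gene start held 46.6% of all progenitor-like and 55.8% of all germ-like fragments at peaks. Whether this share bears on the promoter ratios was not tested. No ambient RNA was removed, and its part in the low RNA levels was not tested.

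**Figure D5:**
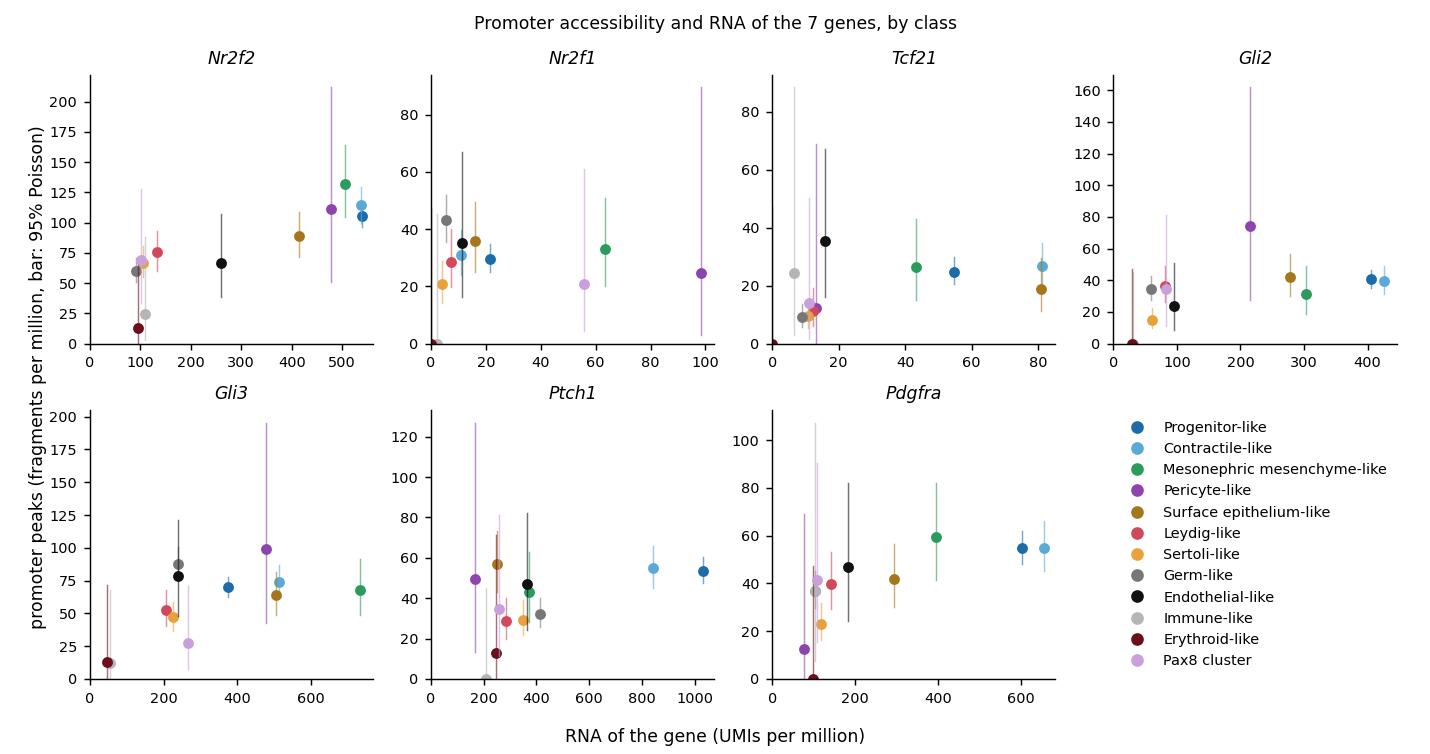
Promoter accessibility (y axis, FPM, with exact 95% Poisson intervals) against RNA (x axis, CPM) of the 7 genes, with 1 point per class of nuclei. For Nr2f2, progenitor-like nuclei lie at 105 and 539 and Leydig-like nuclei at 75.3 and 133, so the classes spread more along the RNA axis.

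Mesonephric mesenchyme-like nuclei resembled progenitor-like nuclei at these loci about as much as at peaks elsewhere. Of 496 members compared, 50 (10.1%) were at least 2-fold higher in mesonephric mesenchyme-like nuclei, against 8.73% of all peaks. Another 92 (18.5%) were at least 2-fold higher in progenitor-like nuclei, against 18.3% of all peaks. The ratio of the locus sum, mesonephric mesenchyme over progenitor, was 0.871 (0.812 to 0.933) at *Ptch1* and 0.896 (0.813 to 0.986) at *Nr2f2*, and the intervals of the other 5 loci held 1. In RNA, *Nr2f1* was 2.94 (2.43 to 3.54) times and *Gli3* 1.96 (1.86 to 2.06) times the progenitor-like level, while *Ptch1* was at 0.361 (0.338 to 0.385) times. Among single peaks, Pdgfra_148 (chr5:75938890-75940153) in an intron of *Kdr* had the largest ratio of its locus, with 33 against 4.6 FPM, 7.19 (3.72 to 13.8) times. Pdgfra_42, in an intron of *Lnx1*, correlated best with *Pdgfra* RNA (r = 0.864) and yet was 5.03 (2.77 to 8.96) times as accessible in mesonephric mesenchyme-like nuclei, where that RNA was 0.654 times the progenitor-like level.

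The 44 pericyte-like nuclei carried lower accessibility at *Pdgfra* than progenitor-like nuclei, with a ratio of the locus sum of 0.631 (0.492 to 0.797) beside an RNA ratio of 0.128 (0.0856 to 0.184). At the other 6 loci the interval held 1, and at *Nr2f1*, whose RNA was 4.55 (3.16 to 6.39) times the progenitor-like level, the sum ratio was 1.24 (0.848 to 1.76). Of 456 members compared, 62 (13.6%) passed 2-fold towards pericyte-like nuclei, against 18.2% of all peaks, and 11 (2.41%) towards progenitor-like nuclei, against 2.88%. These counts rest on few fragments, since 252 of the 456 had none in pericyte-like nuclei and 50 of the 62 had 1 or 2. Only Gli2_41 and Gli2_92, at the start of *Ralb*, reached 10 pericyte-like fragments, with ratios of 1.98 (0.942 to 3.7) and 2.05 (0.971 to 3.82) over progenitor-like nuclei.

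A few members were open mainly outside the interstitium. Ptch1_36 (chr13:63088773-63089708) held 21.9 FPM in Sertoli-like nuclei and 1.88 FPM in all others. Pdgfra_152 (chr5:76006069-76006989) held 38.8 FPM in surface epithelium-like nuclei and 6.52 FPM in all others. Nr2f1_33 and Gli3_3 had 23 and 25 fragments in germ-like nuclei, or 9.19 and 9.99 FPM, and were 109 (17.7 to 4485) and 29.6 (10.2 to 117) times as accessible there as in all others. Repeats marked in the reference take up 92.3% of the central bases of Nr2f1_33 and all of those of Gli3_3, against 13.1% over all peaks and 13.8% over the members. Where reads of such sequence map is less certain.

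The motifs were about as frequent in the members as in all peaks. The share with AGGTCA was 23.4% of members and 22.5% of all peaks, with CAAGGTCA 6.76% and 6.18%, and with CAGCTG 27.5% and 27.3%. For ACCACCC it was 5.26% and 4.43%, for AGATAA 19.6% and 17.3%, for ACAAAG 24% and 22%, and for TGANTCA 9.14% and 8.89%. Among the 168 members higher in progenitor-like nuclei, AGATAA was found in 27.4% (20.8 to 34.8), against 14.7% of the 306 members past 2-fold in neither direction. Over all peaks these shares were 21% and 13.4%. AGATAA was also in 26% (14.6 to 40.3) of the 50 members higher in Leydig-like nuclei and 22.8% of all such peaks. The gap was thus not particular to the members or to 1 direction. Only 5 of the 168 lay within 1 kb of any gene start, of 77 such members compared, and the part of promoters was not tested. CAGCTG was found in 31.5% (24.6 to 39.2) of the 168, against 29.4% of the 306 and 39.5% of all peaks higher in progenitor-like nuclei, and AGGTCA in 19.6% of the 168. Among the 50 members higher in Leydig-like nuclei, AGGTCA was found in 34% (21.2 to 48.8), against 25.5% of the 306 members and 36.4% of all peaks higher in Leydig-like nuclei. CAGCTG was found in 36% (22.9 to 50.8) of these 50 and 30.7% of all peaks higher in Leydig-like nuclei.

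Part of the Leydig-like fragments at these loci came from nuclei with high doublet scores. The automatic threshold of Scrublet, not applied above, marked 152 of the 771 Leydig-like nuclei (19.7%). They gave 39.1% of the Leydig-like fragments at all peaks and 42.4% of those at members. At the 168 members higher in progenitor-like nuclei they gave 63.4%, and at the 50 members higher in Leydig-like nuclei 26.7%. After removal at that threshold and renewed clustering, the progenitor over Leydig ratio was 2.03 (1.81 to 2.3) for the *Nr2f2* sum, 1.3 (1.11 to 1.53) for *Nr2f1*, 1.34 (1.21 to 1.48) for *Tcf21* and 5.72 (1.91 to 28.2) for the *Tcf21* promoter. It was 3.46 (1.9 to 7.03) at Nr2f2_32. Other classes held such nuclei too. The threshold marked 36.2% of endothelial-like, 29.2% of immune-like, 24% of germ-like and 15.6% of Sertoli-like nuclei, and 5.67% of progenitor-like nuclei. Their part in the values of those classes is not given here.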

How the data were processed

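The library was made with the 10x multiome assay, and per the labels Cell Ranger ARC 2.0.1 and mm10 were used. The matrix deposited by the authors holds raw counts (UMIs for genes and transposase cuts for peaks), and their fragment list gave the cut counts back (median ratio of both 1.00). Fragments with at least 1 cut in a peak were counted per nucleus. Nuclei passed at over 500 genes, under 10% mitochondrial, 10% ribosomal and 0.5% haemoglobin UMIs, over 20% of fragments at peaks and 250 to 25000 fragments there (7668 of 9833 barcodes). The 470 nuclei (6.13%) with the highest Scrublet score (scanpy 1.11.5) were removed as doublets, a rank removal that stands in for the study's caller. Kept nuclei had medians of 7948 UMIs and 4477 fragments.

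RNA was clustered with Seurat 5.3.0 in R 4.3.3 (30 components, 2000 variable genes), and a cluster was named by the highest mean z score of its markers. The rule set for the resolution gave 0.3, where the largest mesenchymal cluster stayed unnamed and the Sertoli cluster took a Schwann name. The resolution of 0.6 was therefore chosen after clusters had been seen, and 0.3 is an alternative.

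Peaks were compared at 20 or more fragments over both classes, and a class at 0 was set to 3 fragments. Per locus, peaks with at least 40 fragments were named for the highest progenitor-like level, the largest ratios and the best correlation with RNA, and 2 peaks per other class for the largest ratio to all other nuclei at 20 or more fragments of the class. Intervals are exact Poisson for levels, conditional binomial for ratios and Clopper-Pearson for shares. The members, markers and lists were chosen with earlier results of these data known. The counting was tested on simulated data. The level of 1 progenitor marker is not reported here.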

Additional observations from a re-analysis of the deposited data

How the results depend on the processing

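No paired analysis was possible because each assay has 1 library, and no replicate could be left out for the same reason. Ratios near 1 crossed it, at the *Nr2f1* promoter (0.912 to 1.18 over the alternatives) and Ptch1_62 (0.939 to 1.1). Within 500 kb, the progenitor over Leydig ratio of the locus sum was 1.89 at *Tcf21* and 1.67 at *Gli3*, both above the 1.59 of *Nr2f2*, and it was 1.25 at *Ptch1*, 1.13 at *Pdgfra* and 0.99 at *Gli2*. With all fragments as the denominator it was 1.1 at *Ptch1*, 0.946 at *Gli2* and 1.37 at *Pdgfra*, and at a resolution of 0.3 it was 1.37 at *Pdgfra*. The automatic Scrublet threshold gave the values printed with the doublet scores. Counts of peaks moved too. Of the 168 members higher in progenitor-like than in Leydig-like nuclei, the count became 28 at a minimum of 100 fragments, 100 within 500 kb, 86 at 3-fold and 91 at a resolution of 0.3, added after the data were seen. The 50 higher in Leydig-like nuclei became 82 on the deposited cut counts, 99 at a minimum of 1 fragment in each class, 0 at 100 fragments, 27 within 500 kb, 77 at 1.5-fold and 28 at 3-fold. The 50 higher in mesonephric mesenchyme-like than in progenitor-like nuclei became 89 on cut counts, 29 without the cycling progenitor cluster, 118 at 1 fragment in each class, 0 at 100 fragments, 23 within 500 kb, 89 at 1.5-fold, 23 at 3-fold and 25 at a resolution of 0.3. The 92 in the reverse direction became 16 at 100 fragments, 50 within 500 kb, 157 at 1.5-fold, 39 at 3-fold and 45 at a resolution of 0.3. The 62 higher in pericyte-like nuclei became 106 on cut counts, 28 without the cycling cluster, 120 at 1 fragment in each class, 4 at 100 fragments, 107 at 1.5-fold, 25 at 3-fold and 20 at a resolution of 0.3, and the 11 in reverse became 25 at 1.5-fold and 5 at 3-fold. The other minimums, windows and folds change how many peaks can pass by construction, and for the rest the cause was not tested. For the Leydig-like, mesonephric mesenchyme-like and pericyte-like directions the share of all peaks at these settings is not given. Those counts show only how the calls move with the setting and are no result about the members. The share of members higher in progenitor-like than Leydig-like nuclei lay above that of all peaks in each of these, for example 16.4% against 10.3% at 3-fold and 30.5% against 19.4% at a resolution of 0.3. At 0.3 the largest mesenchymal cluster was unnamed and stood outside the named classes, so progenitor-like nuclei there are a different set. Few fragments per peak limit the values of single peaks, and pericyte-like values are best read as sums.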

Other observations

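The windows also hold other genes. Of the 148 genes, 52 reached 20 CPM in some class. Of the 45 of these other than the 7 named above, 11 had at least 2-fold more RNA in progenitor-like than in Leydig-like nuclei and 9 had at least 2-fold less. The same shares over all genes at 20 CPM are not given, so these counts are not read as a trait of the windows. The non-coding gene *B130024G19Rik*, in the *Nr2f2* window, had 682 CPM in progenitor-like against 139 CPM in Leydig-like nuclei, and the 61 peaks nearest to it held 404 and 226 FPM. *Eya4*, a transcriptional coactivator gene of the *Tcf21* window, stood at 125 CPM in pericyte-like and 87.6 CPM in mesonephric mesenchyme-like nuclei. The 16 peaks nearest to *Eya4* held 130.4 FPM in mesonephric mesenchyme-like and 75.2 FPM in progenitor-like nuclei. *Hsd17b3*, which encodes an enzyme of testosterone synthesis and lies in the *Ptch1* window, had 753 CPM in Sertoli-like and 8.32 CPM in Leydig-like nuclei. These genes were picked after their values were seen.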
